A study of Homo sapiens with 17 samples.

Results

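FOXA1 bound regions at the ends of protein-coding genes were examined in A549 cells, which are a long-established line from a human lung carcinoma. Peaks of both FOXA1 lists from unmodified (WT) cells on chromosomes 1 to 22 and X were merged where they shared at least 1 bp, and regions called in both lists were kept. A region belonged to the gene-end set when it lay within 1 kb of either end of a protein-coding gene and touched no base covered in both H3K9me3 lists or in both H3K27me3 lists. This gave 2460 gene-end regions out of 35739 WT FOXA1 regions. The set was chosen by the WT FOXA1 and histone mark peak calls, so its WT values are a description and only the lists of the second cell line bear independently on it. The other unmarked regions, 31527 in number and more than 1 kb from any such end, served as the comparison.

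The series used chromatin immunoprecipitation with sequencing (ChIP-seq), which recovers DNA fragments bound to a protein or carrying a histone mark. From untreated WT cells there were 2 libraries for each of H3K27me3, H3K9me3 and FOXA1. The A-Fos line was A549 with A-Fos integrated by piggyBac transposition. It gave 2 FOXA1 and 2 FOSL2 libraries without doxycycline, and 2 of each after doxycycline at 1 µg/mL for 48 h, which induces A-Fos. A-Fos is a dominant-negative Fos protein that pairs with Jun and keeps it from binding DNA. The sample titles call all of these biological replicates. Whether the line is a clone is not given in the labels, and no doxycycline-treated cells lacking A-Fos were analysed here, so the drug and the induced protein cannot be told apart. The WT and A-Fos lines also differ in library, so line and library cannot be told apart either. Peak lists hold no expression, so the identity of the cells was not checked against marker transcripts.

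FOXA1 is a forkhead pioneer factor that can bind its motif on nucleosomal DNA and open compact chromatin in lung, liver, breast and prostate epithelium. Most of its sites lie in enhancers away from genes. Promoters of broadly expressed genes are usually rich in GC and CpG and carry CCAAT, GC-box and ETS-type motifs, whereas the forkhead motif is rich in A and T. AP-1, a dimer of Fos and Jun family proteins such as FOSL2, binds TGACTCA and often shares enhancers with FOXA1. H3K9me3 and H3K27me3 mark silent heterochromatin and Polycomb-repressed chromatin.

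Example sequences, picked by forkhead match and by calls in the A-Fos line, are shown first, so they illustrate the classes only. RefSeq promoter windows of GRCh38.p14, 250 bases before to 50 bases after the gene start, were searched on both strands for the forkhead spellings TGTTTAC and TATTTAC and also TGTTTGC and TATTTGC. Stretches of 80 bases before the start are printed 5′ to 3′ in the direction of transcription, with each forkhead match in capitals. The first 5 came from the regions with the highest WT enrichment among those with a forkhead match and a WT summit (the point of highest signal, library 2) before the start, called in all 4 FOXA1 lists of the A-Fos line. 
ECT2: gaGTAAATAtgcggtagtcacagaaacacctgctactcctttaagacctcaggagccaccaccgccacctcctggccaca
WDR48: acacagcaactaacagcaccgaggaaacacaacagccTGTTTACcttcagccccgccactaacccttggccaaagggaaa
TBL1X: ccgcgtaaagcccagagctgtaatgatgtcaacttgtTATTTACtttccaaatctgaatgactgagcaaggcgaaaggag
ELOF1: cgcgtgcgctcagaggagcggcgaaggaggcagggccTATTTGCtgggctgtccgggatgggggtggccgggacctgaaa
HACL1: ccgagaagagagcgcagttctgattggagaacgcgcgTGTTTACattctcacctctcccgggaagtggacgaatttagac
These lay at chr3:172750476-172750555 (plus strand, ECT2, a factor of cytokinesis), chr3:39051882-39051961 (plus strand, WDR48, a cofactor of deubiquitinases), chrX:9463070-9463149 (plus strand, TBL1X, a corepressor subunit), chr19:11559271-11559350 (minus strand, ELOF1, a transcription elongation factor) and chr3:15601620-15601699 (minus strand, HACL1, a peroxisomal lyase). The match nearest to the summit was centred 3.5 bp from it at ECT2, 3.5 bp at TBL1X and 4.5 bp at HACL1. It was 48.5 bp away at ELOF1 and 90.5 bp away at WDR48, where the region also covered the start of SCN11A on the other strand.

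The next 3 had a forkhead match but were called in none of the 4 A-Fos line FOXA1 lists.
SOX12: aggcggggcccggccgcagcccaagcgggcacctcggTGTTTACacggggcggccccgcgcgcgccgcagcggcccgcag
CTSF: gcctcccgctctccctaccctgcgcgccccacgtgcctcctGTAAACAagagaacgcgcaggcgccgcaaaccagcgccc
TRMT61A: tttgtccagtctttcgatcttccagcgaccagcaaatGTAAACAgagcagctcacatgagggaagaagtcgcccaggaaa
They lay at chr20:325417-325496 (plus strand, SOX12, a SOX family transcription factor), chr11:66568607-66568686 (minus strand, CTSF, a lysosomal protease) and chr14:103528999-103529078 (plus strand, TRMT61A, a tRNA methyltransferase subunit). Their matches were as close to the summit as those above, at 4.5, 4.5 and 9.5 bp. The printed SOX12 stretch was 82.5% G and C and held 14 CpG dinucleotides, against 53.8% and 2 at ECT2. CTSF stood at 70.0% and 9 CpG and TRMT61A at 48.8% and 3 CpG, so the 3 were not alike in base composition.

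The last 3 of this group had no forkhead match in the window and were likewise called in no A-Fos line FOXA1 list. 
INTS1: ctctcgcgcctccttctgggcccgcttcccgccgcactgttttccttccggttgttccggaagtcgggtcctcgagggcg
HYKK: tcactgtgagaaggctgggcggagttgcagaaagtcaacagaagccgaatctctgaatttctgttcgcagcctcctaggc
FOXD3: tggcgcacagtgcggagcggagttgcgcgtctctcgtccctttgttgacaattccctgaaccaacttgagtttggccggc
They lay at chr7:1504392-1504471 (minus strand, INTS1, a subunit of the Integrator complex), chr15:78507385-78507464 (plus strand, HYKK, hydroxylysine kinase) and chr1:63322402-63322481 (plus strand, FOXD3, a forkhead factor of neural crest). Absence of a match says only that these 4 spellings are not in the window.

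Forkhead matches were more frequent in promoter windows touched by a gene-end region than in promoters at large. Of 869 touched windows, 227 (26.1%, exact 95% interval 23.2 to 29.2) held at least 1 match, beside 9.64% of all 15811 windows and 8.46% of the 14836 windows that no WT FOXA1 region touched. TGTTTAC alone was found in 13.6% of touched windows and 2.62% of all windows. The other promoter motifs differed less. CCAAT was in 43.5% of touched and 36.3% of all windows, GGGCGG (a GC box) in 63.8% and 58.5%, and CCGGAAG (an ETS-type motif) in 19.4% and 14.2%. Mean GC content was close, 60.4% in touched and 61.4% in all windows. By quartile of WT enrichment, the forkhead share in touched windows was 17.4% in the weakest, then 19.4% and 28.6%, and 39.2% in the strongest, while CCAAT lay between 42.9% and 44.2%. Intervals here and below cover counting error over regions or windows only. The share was 15.7% when regions of WT library 2 alone were used and 34.3% with those of library 1 alone.

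In windows that held both a summit and a forkhead match, the match mostly lay close to the summit. Distances were not measured in touched windows without the summit. Among 408 windows that held the region's summit in WT library 2, 178 had a match, and the nearest match was a median of 4.5 bp from the summit. In WT library 1 the median was 5.5 bp, over 178 of 400 windows. A match lay within 50 bp of the summit in 89.3% and 86.5% of these. The nearest CCAAT was a median of 62.5 and 65.0 bp away, GGGCGG 53.0 bp in both libraries, CCGGAAG 53.5 and 51.5 bp, and the AP-1 spellings TGACTCA and TGAGTCA 45.5 and 28.5 bp. Library 2 had 79 forkhead matches from 20 to 0 bp before the summit and 67 from 0 to 20 bp after it, and no other 20 bp step within 200 bp held more than 6.

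**Figure D1:**
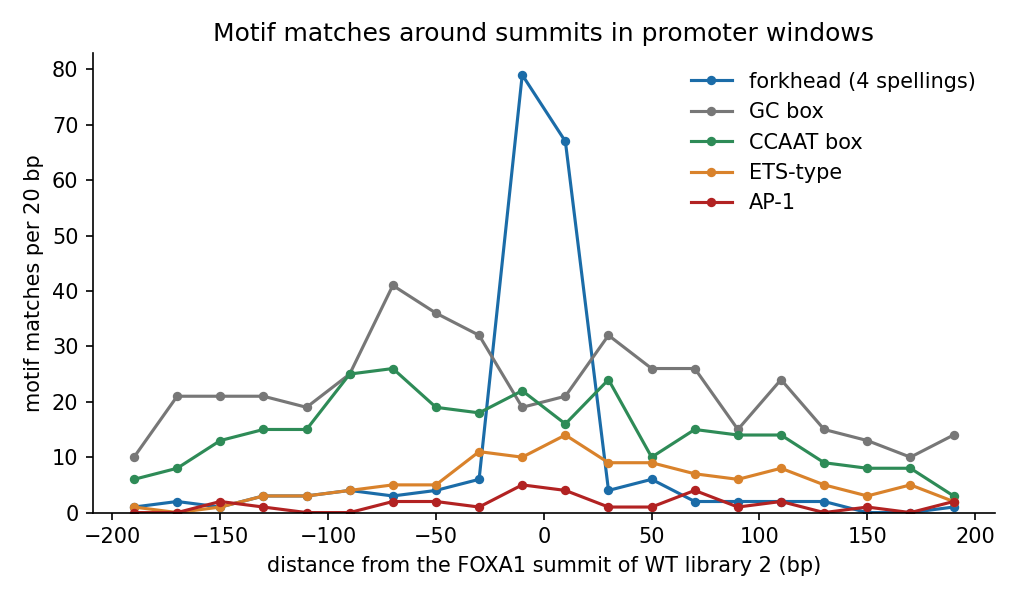
Matches of 5 motifs per 20 bp step (vertical axis) by distance in bp from the FOXA1 summit of WT library 2 (horizontal axis, negative is upstream), over the 408 promoter windows that hold the summit. The forkhead matches stand at 79 and 67 in the central steps, while the GC box, CCAAT, ETS-type and AP-1 matches have no such peak.

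Of the 2460 gene-end regions, 1467 lay near a start but no known downstream end, 465 near a downstream end but no known start, and 66 near both. The remaining 462 lay only near ends of genes whose strand the tables used here did not give. Regions of the other classes could also lie near such an end, as at KRT8 and KRT18. Exons, introns and UTRs were not distinguished. A gene start lay inside 671 regions and a downstream end inside 154. Gene-end regions were 187 to 3336 bp wide with a median of 597 bp, beside a median of 529 bp for the other unmarked regions. At the edge of the rule, the regions just inside were near BHLHE40 (1000 bp), GNPTAB and PIWIL2 (999 bp each), with WT folds of 48.1 and 147, 6.68 and 7.75, and 5.61 and 5.70. Those just outside were near NFE2L2 and NRARP (1001 bp each) and ETV6 (1002 bp), with 6.68 and 16.4, 5.07 and 10.0, and 3.02 and 5.39. The number of gene-end regions was 7099 when WT library 1 was left out, 1608 from the upper parts of the lists and 1131 when at least 50% of a region had to be covered.

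At starts, summits were concentrated just upstream. Of the 1533 regions near a start, 57.8% in library 1 and 57.9% in library 2 had the summit upstream. In library 2, 173 summits fell in the 100 bp before the start, 93 in the 100 bp after it and 26 in the next 100 bp. The library 1 counts were 160, 94 and 28. At downstream ends the split was even, with 48.0% and 48.2% of 531 summits before the end. The summits of both libraries in one region were a median of 10 bp apart, and 86.7% were within 50 bp.

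**Figure D2:**
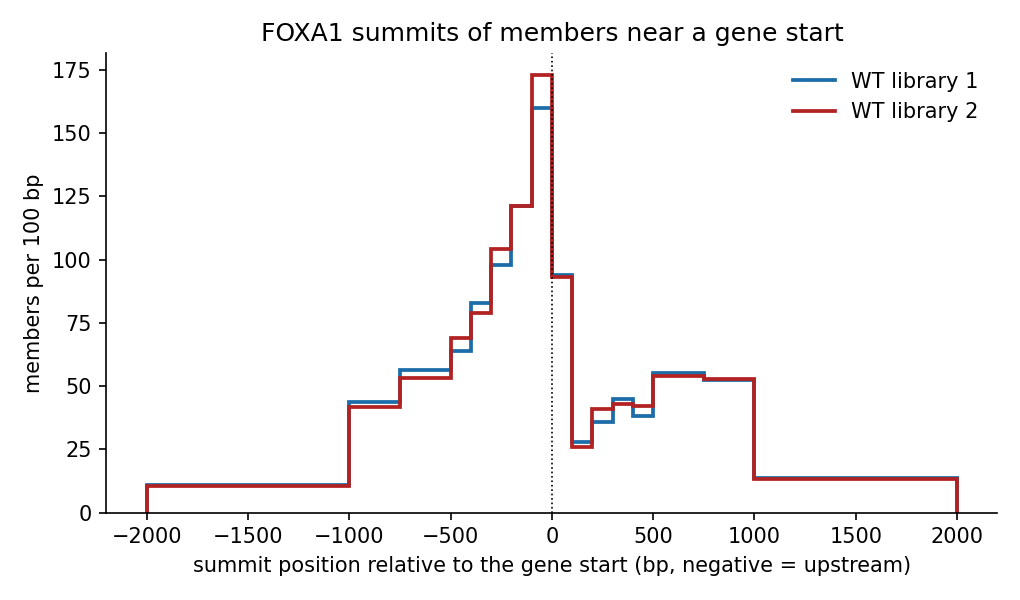
Number of gene-end regions per 100 bp (vertical axis) by the position of their highest FOXA1 summit relative to the nearest gene start in bp (horizontal axis, negative is upstream), for each WT library. Bins are 100 bp wide near the start and up to 1000 bp wide further out, and both libraries show the highest density in the 100 bp before the start and a drop beyond 100 bp after it.

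WT enrichment at gene ends was close to that elsewhere. Fold enrichment, the authors' own value for each peak, ranged from 2.69 to 596 with a median of 6.41 in library 1 and from 2.45 to 450 with a median of 10.9 in library 2. The other unmarked regions had medians of 6.41 and 10.1. The median percentile within the WT lists, averaged over both, was 69.8 for gene-end regions and 68.2 for the others.

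In the A-Fos line, the gene-end regions were called less often than the others in every FOXA1 library. Without doxycycline 9.59% and 18.7% of gene-end regions overlapped a FOXA1 peak, and with it 13.6% and 14.8%. The other unmarked regions stood at 19.2% and 35.0% without, and 19.6% and 25.1% with doxycycline. The gene-end share was lower in 4 of 4 libraries (mean difference −10.5 ± 4.26 percentage points, SD, n = 4 libraries). An exact two-sided sign-flip permutation test over the 4 libraries gave p = 0.125, the smallest that 4 libraries allow (0.167 after Benjamini-Hochberg adjustment over 4 such tests). The sign-flip tests were chosen after values were seen, and their 4 libraries pool both conditions. The mean difference was −13.0 points without and −8.14 points with doxycycline, so the SD holds the spread between conditions too. Reweighting the others to the same mix of WT enrichment left them at 20.1%, 36.7%, 20.4% and 26.1%. In total 1853 gene-end regions (75.3%) were in none of the 4 lists, beside 53.8% of the other unmarked regions.

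Regions at starts were called least. Their shares were 8.04% and 15.2% without doxycycline and 12.7% and 13.1% with it. Regions at downstream ends stood at 13.8% and 29.2% without and 15.3% and 18.9% with doxycycline, between the starts and the regions elsewhere in each library. Starts were lower than downstream ends in 4 of 4 libraries (mean difference −7.03 ± 4.92 percentage points, SD, n = 4, exact sign-flip permutation p = 0.125, adjusted 0.167). Distance to the nearest start was measured for genes of known strand only, so regions at starts of other genes could fall in further classes. Over all unmarked regions by this distance, 9.69% of those that held a start were called in both libraries without doxycycline. The share was 5.45% from 1 to 1000 bp away, 7.99% up to 2000 bp, 10.3% up to 5000 bp, 14.1% up to 10000 bp and 17.4% up to 50000 bp. Regions that held a start had a median WT percentile of 75.9 and those from 1 to 1000 bp away 65.2. The 151 regions near starts on opposite strands were called in 3.31% and 10.6% of cases without doxycycline and 10.6% and 7.95% with it.

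**Figure D3:**
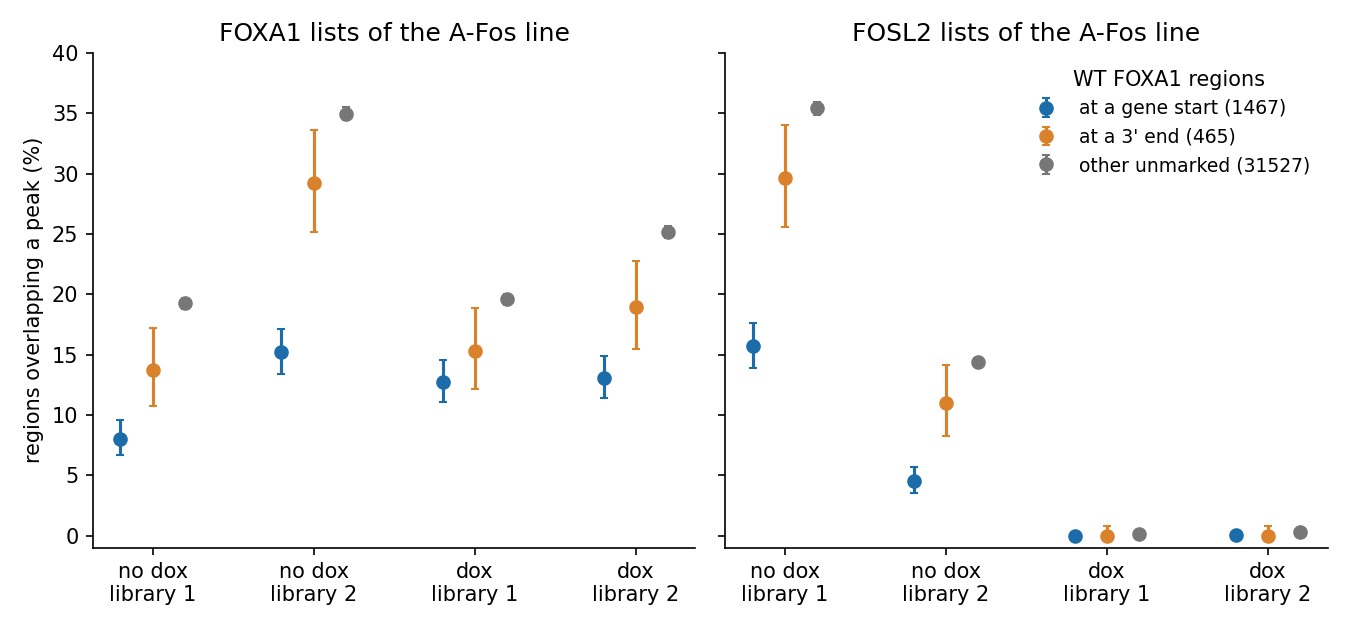
Percent of WT FOXA1 regions that overlap a peak (vertical axis) in each FOXA1 list (left) and FOSL2 list (right) of the A-Fos line, without or with doxycycline (dox), for regions at a gene start, at a downstream (3′) end and elsewhere. Points are single libraries and bars are exact 95% intervals over regions; regions at starts are lowest in each FOXA1 library, and FOSL2 calls are near 0 with doxycycline.

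Called in both libraries without doxycycline were 216 gene-end regions, 8.78% (exact 95% interval 7.69 to 9.97), beside 16.6% of all WT FOXA1 regions and 17.6% of the other unmarked regions. Leaving out the first of these libraries gave 18.7% and regions of WT library 2 alone gave 3.06%. The gap depended on enrichment. In the strongest decile of WT enrichment 61.3% of gene-end regions and 89.1% of the others were called in both, and in the ninth decile 12.1% and 47.8%. In the weakest 3 deciles all shares were below 1%. In the strongest decile the doxycycline libraries did not show this gap. There 69.2% and 69.6% of gene-end regions were called with doxycycline, beside 64.0% and 68.3% of the others, whereas without doxycycline the shares were 61.7% and 82.2% beside 89.3% and 98.3%. The doxycycline lists of the ninth decile still had lower gene-end shares, 24.9% and 27.2% beside 39.3% and 47.1%.

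**Figure D4:**
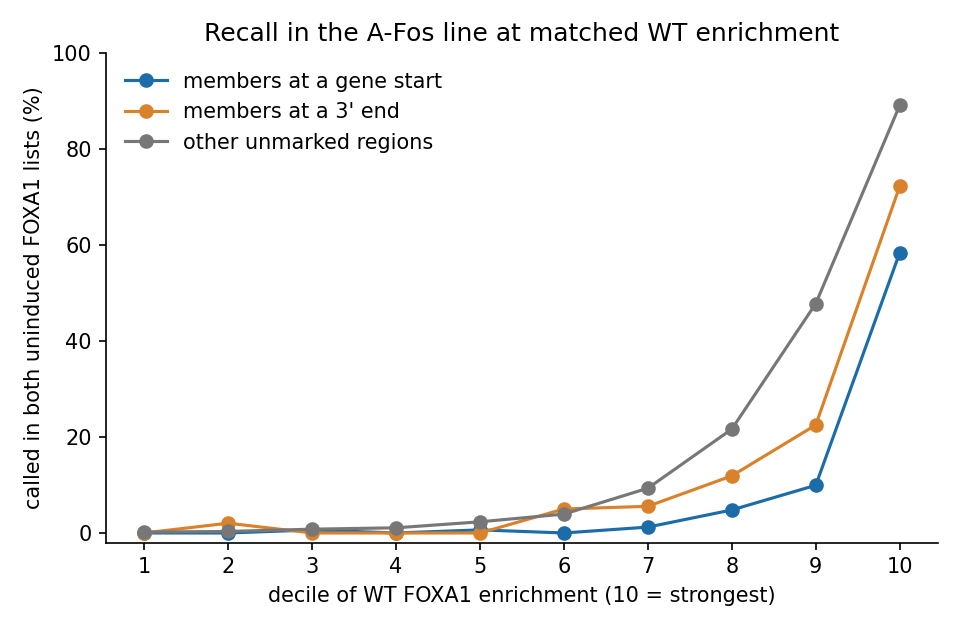
Percent of regions called in both FOXA1 lists without doxycycline (vertical axis) in each decile of WT FOXA1 enrichment (horizontal axis, 10 is the strongest), for regions at gene starts, at downstream (3′) ends and elsewhere. The curves separate in deciles 7 to 10, where the other unmarked regions reach 89.1% and the starts 58.4%.

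The lists themselves showed the same difference in make-up. Among the 7633 strongest peaks of each FOXA1 list, 6.72% and 7.56% lay within 1 kb of a gene end in WT cells, 2.90% and 3.25% in the A-Fos line without doxycycline, and 3.97% and 3.60% with it.

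Forkhead matches were also more frequent in promoters whose region was called again in the A-Fos line. A match was present in 22.0% of 681 touched windows whose region was in no A-Fos line FOXA1 list, 26.98% of 63 in 1 list, 39.0% of 41 in 2, 42.9% of 35 in 3 and 59.2% of 49 in all 4. Base composition moved with this order. Mean GC content was 62.0% with 24.0 CpG per window in the first class and 55.5% with 15.9 CpG in the last, and its part in the result was not tested. Within the strongest quartile of WT enrichment, 35.1% of 97 windows in no list and 54.8% of 42 in all 4 lists held a match, with intervals of 25.6 to 45.4 and 38.7 to 70.2. The classes between did not follow that order, at 33.3% of 24 windows in 1 list, 31.8% of 22 in 2 and 40.6% of 32 in 3. GC content in the no-list and 4-list classes was 65.2% and 56.5%. Over all enrichment classes, counting windows that held the summit of WT library 2 gave 38.2% of 330 in no list and 87.0% of 23 in all 4. Their mean GC content was 61.0% and 53.1%, so these shares are not matched for enrichment or base composition.

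**Figure D5:**
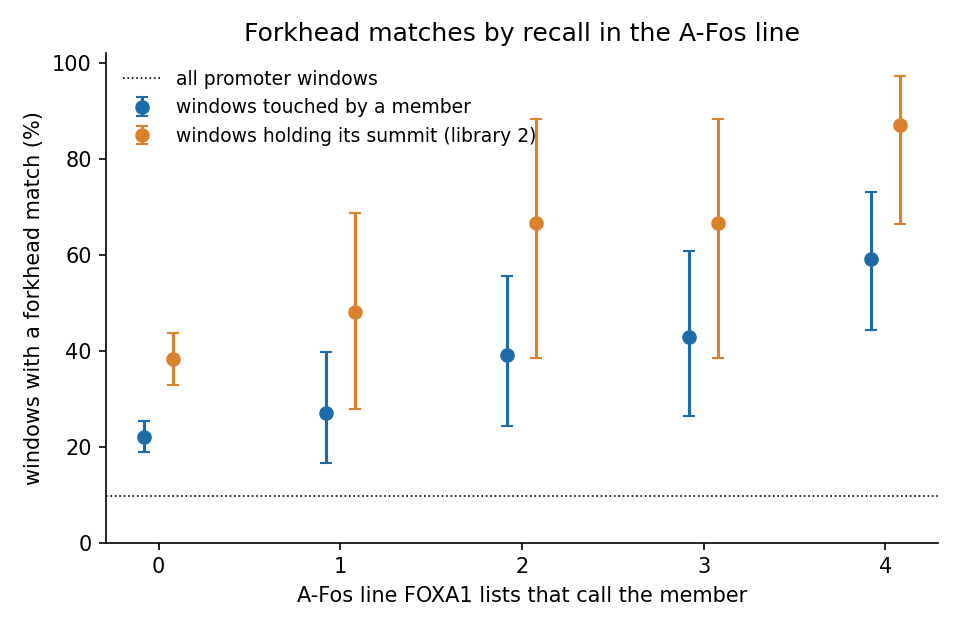
Percent of promoter windows with a forkhead match (vertical axis) by the number of A-Fos line FOXA1 lists that call the region (horizontal axis), for all touched windows and for windows holding the summit, with exact 95% intervals. The share goes from 22.0% to 59.2% in touched windows and from 38.2% to 87.0% in windows holding the summit, and the dotted line marks the 9.64% of all promoter windows.

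Doxycycline left the FOXA1 share of gene-end regions within the spread of the libraries. It was 14.1% ± 6.44 (SD, n = 2) without and 14.2% ± 0.862 (SD, n = 2) with doxycycline, a difference of 0.0813 percentage points (exact permutation p = 1). With 2 libraries against 2 no p below 0.333 is possible. The direction was not stable: the difference was −4.47 without the first uninduced library and 4.63 without the second. The change in gene-end regions minus that in the others was 4.82 points (exact permutation p = 0.667, adjusted 1 over 8 tests). It was 8.12 and 1.51 points without the first and second uninduced library.

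Called in both libraries without doxycycline and in neither with it were 42 of the 216 regions, 19.4% (exact 95% interval 14.4 to 25.4), beside 30.8% of all WT FOXA1 regions of that kind and 31.3% of the other unmarked ones. The share was 13 of 107 at starts (12.1%, interval 6.63 to 19.9) and 21 of 59 at downstream ends (35.6%, interval 23.6 to 49.1), and this difference was not tested, since the regions share the same 4 libraries. Leaving out the first uninduced library gave 35.0% for the set. Called in all 4 lists were 157 gene-end regions (6.38%), beside 8.94% of all WT FOXA1 regions. The opposite pattern, called in both doxycycline lists alone, was seen in 35 (1.42%), beside 2.57% of all.

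FOSL2 was found at gene-end regions less often than elsewhere without doxycycline, and with doxycycline it was called at almost none of the WT FOXA1 regions of either kind. Without doxycycline 19.3% and 6.22% of gene-end regions overlapped a FOSL2 peak, and with it 0 of 2460 and 1 of 2460. The means were 12.8% ± 9.26 and 0.0203% ± 0.0287 (SD, n = 2 each), a difference of −12.7 percentage points (exact permutation p = 0.333, the smallest possible, adjusted 0.667). The FOSL2 lists with doxycycline were short, 1854 and 5274 peaks against 45586 and 14842. Cut to the 1854 strongest peaks each, the difference was −0.73 points. The other unmarked regions stood at 35.4% and 14.3% without doxycycline and at 0.146% and 0.266% with it. Starts had 15.7% and 4.50% and downstream ends 29.7% and 11.0%.

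FOSL2 regions found in both uninduced FOSL2 lists overlapped 155 gene-end regions, 6.30% (exact 95% interval 5.37 to 7.33), beside 13.5% of all WT FOXA1 regions and 14.5% of the other unmarked regions. The share was 0.488% with lists of equal length and 19.3% without the second uninduced FOSL2 library. Among gene-end regions called by FOXA1 in both uninduced lists, 17 of 46 with FOSL2 (37.0%, interval 23.2 to 52.4) and 25 of 170 without it (14.7%, interval 9.75 to 20.9) were called in neither doxycycline FOXA1 list. The other unmarked regions had 43.4% and 26.2%. Of the regions called with doxycycline alone, 0 of 35 at gene ends (interval 0 to 10.0) and 11 of 773 elsewhere (1.42%) overlapped a FOSL2 region, so the gene-end interval holds the share found elsewhere.

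AP-1 spellings were more frequent where FOSL2 was called. They were found in 14 of 33 touched windows with a FOSL2 region (42.4%, interval 25.5 to 60.8) and in 32 of 836 without one (3.83%), beside 3.67% of all promoter windows. Forkhead matches were in 6 of the 33 (18.2%) and 221 of the 836 (26.4%). The 3 most enriched of the windows with both the FOSL2 region and an AP-1 match before the start are shown with the AP-1 match in capitals. 
ADGRF4: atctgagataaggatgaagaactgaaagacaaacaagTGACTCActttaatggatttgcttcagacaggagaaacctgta
MBNL2: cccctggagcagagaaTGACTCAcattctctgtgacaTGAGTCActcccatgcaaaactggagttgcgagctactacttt
EMP1: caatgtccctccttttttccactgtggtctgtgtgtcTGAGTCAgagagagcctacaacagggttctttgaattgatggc
They lay on the plus strand at chr6:47698420-47698499 (ADGRF4, an adhesion G-protein-coupled receptor), chr13:97141732-97141811 (MBNL2, a splicing regulator) and chr12:13196514-13196593 (EMP1, an epithelial membrane protein). At ADGRF4 the FOSL2 fold was 29.6 and 4.50 without doxycycline, and FOXA1 had folds of 22.7 and 41.3 in WT, 8.81 and 18.0 without doxycycline, and no peak with it. MBNL2, with 2 AP-1 matches in the stretch, had FOSL2 folds of 87.6 and 27.6. Its FOXA1 folds were 10.7 and 28.3 in WT and 5.99 and 8.12 without doxycycline, with no peak in either doxycycline list. EMP1 had FOSL2 folds of 25.2 and 5.56. FOXA1 at EMP1 stood at 10.2 and 22.6 in WT, with 4.35 in the second uninduced library and 2.52 in the first doxycycline library only.

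Other regions with a high FOSL2 percentile were at SMIM21, SLFN12, MEIOB and MYCT1. Their FOSL2 folds without doxycycline ran from 45.8 to 54.9 in the first library and from 13.7 to 19.2 in the second. FOXA1 peaks of the A-Fos line were absent at SMIM21 and SLFN12. They were present without doxycycline at MEIOB (5.18 and 11.1) and MYCT1 (7.52 and 6.67), and with it at MEIOB in the first library alone (3.58).

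Among regions near the start of a single gene, the highest WT enrichment was at TRIM34 (a tripartite motif protein) at chr11:5620812-5622004. Its region edge lay 868 bp from the start, and its summits 1433 and 1435 bp after the start in WT libraries 1 and 2. Its folds were 249 and 450 in WT, 72.3 and 156 without doxycycline, and 109 and 176 with it. BAHCC1 (a chromatin-binding BAH domain protein, chr17:81393355-81395522) had 131 and 334 in WT but 7.62 and 9.05 without and 14.3 and 14.4 with doxycycline. So regions of similar WT rank differed widely in the A-Fos line. GRAMD1A (a sterol transfer protein) had 98.3 and 279, then 8.92 and 15.8, then 17.7 and 17.8. ECT2, whose promoter stretch was given first, had 95.9 and 280, then 21.9 and 43.8, then 37.0 and 57.1. The doxycycline values lay above both uninduced values at BAHCC1 and GRAMD1A and overlapped them at TRIM34 and ECT2. Folds from separate lists are not on a common scale. The next in rank were ATAD1 (a mitochondrial ATPase), FCER1A (an IgE receptor chain), DNPEP (an aminopeptidase), RNF213 (a ubiquitin ligase), MYPN (a sarcomere protein) and FCHO2 (an endocytosis protein). All 6, chosen for high WT enrichment, were called in all 4 lists, beside 5.59% of all regions at starts. Besides TRIM34, summits lay more than 1 kb from the start at BAHCC1, ATAD1, FCER1A and DNPEP. They lay within 1 kb of it at GRAMD1A, ECT2, RNF213, MYPN and FCHO2. ATAD1 had 23.4 and 54.1 without and 8.91 and 13.3 with doxycycline, and DNPEP 39.5 and 77.4 without and 10.7 and 28.7 with it, so in both genes the doxycycline values lay below the uninduced ones. Both had FOSL2 peaks in both uninduced libraries, 26.1 and 9.45 at ATAD1 and 9.36 and 4.02 at DNPEP.

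At downstream ends the highest regions were at ITGA10 (an integrin chain), ARRB2 (a beta-arrestin), RCAN3 (a calcineurin regulator), BHLHE40 (a circadian repressor), FAM186A, HSD17B13 (a lipid droplet enzyme), S100P (a calcium-binding protein) and ELF3 (an epithelial ETS factor). All 8, chosen for high WT enrichment, were called in all 4 lists of the A-Fos line, beside 7.53% of all regions at downstream ends. ITGA10 had WT folds of 78.0 and 167, then 20.4 and 22.8 without and 8.94 and 4.33 with doxycycline. RCAN3 had 60.4 and 105, then 17.6 and 38.4, then 7.39 and 10.7. ITGA10, ARRB2 and RCAN3 had lower folds with doxycycline in both libraries and FOSL2 peaks in both uninduced libraries (27.5 and 4.84, 12.3 and 4.40, and 36.0 and 11.2). FAM186A and ELF3 had a FOSL2 peak in the first uninduced library alone (7.07 and 4.02). FOXA1 at FAM186A stood at 16.9 and 21.2 without and 33.0 and 23.0 with doxycycline. At ELF3 it stood at 3.65 and 4.65 without and 3.54 and 3.51 with doxycycline. BHLHE40, HSD17B13 and S100P had no FOSL2 peak. HSD17B13 stood at 19.2 and 26.1 without and 25.1 and 49.3 with doxycycline. No test was made of these single regions.

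Near ends of several genes, the highest regions were at RHOH and N4BP2, VPS35L and KNOP1, KRT8 and KRT18 (the keratins of simple epithelium), SCN11A and WDR48, ANKRD40 and ABCC3, and MEGF6 and TPRG1L. The KRT8 region (chr12:52949406-52950465) held the gene start, with its summit 97 bp upstream in both WT libraries. It had folds of 62.8 and 135 in WT, 10.9 and 9.91 without and 7.51 and 3.70 with doxycycline, and FOSL2 folds of 24.5 and 5.07. MEGF6 and TPRG1L shared a start region with 55.6 and 128 in WT, 5.45 in the second uninduced library alone, and 10.1 and 7.74 with doxycycline.

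In all 4 lists, TRIB1 (a pseudokinase, folds of 134 and 367 in WT) and FBXL18 (an F-box protein, 139 and 229) ranked beside the start regions already described. TRIB1 had FOSL2 peaks in both uninduced libraries (11.1 and 4.32). Its FOXA1 folds with doxycycline, 8.59 and 10.5, lay between the uninduced ones. So, unlike at ATAD1, DNPEP, ITGA10, ARRB2 and RCAN3, FOSL2 peaks at TRIB1 did not go with lower doxycycline folds. Lost from both doxycycline lists were regions at CCND1 (cyclin D1), VPS35L and KNOP1, PTPRH (a receptor phosphatase), KLHL4, TGFBR2 (a TGF-beta receptor) and IL20RA (an interleukin receptor chain). CCND1 had WT folds of 596 and 104, with the first library far above the second, and 4.93 and 15.0 without doxycycline. VPS35L and KNOP1 had 62.8 and 152 in WT and 12.4 and 18.8 without doxycycline. TGFBR2 had 37.4 and 95.0, then 4.24 and 7.81. Of these 6, chosen for high WT enrichment, all except KLHL4 had FOSL2 peaks in both uninduced libraries. Over all lost regions a FOSL2 region was present at 17 of 42 at gene ends (40.5%) and at 712 of 1734 elsewhere (41.1%). Called with doxycycline alone were IFT20 and TNFAIP1, TBC1D17 and AKT1S1, HEXIM2, and TMEM80 and EPS8L2, with folds of 3.51 to 5.35 there. These are low folds, and their WT folds were 21.1 to 36.3 and 63.9 to 89.3.

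The factors themselves were among the genes with such regions. FOXA1 had 1 region 330 bp from its downstream end (folds of 16.8 and 23.0 in WT, 3.80 in the second uninduced library alone). FOXA2, the related forkhead factor, had a region over one of its ends (14.8 and 41.1 in WT, none in the A-Fos line). FOSL2 had 2 regions, 1 holding its start with WT folds of 4.54 and 6.38 and FOSL2 folds of 9.22 and 3.93, the other 975 bp away with 5.61 and 12.5 and no FOSL2 peak. FOS had 1, 711 bp from its downstream end (8.75 and 20.1). JUN had none, and the nearest unmarked region was 30931 bp from it.

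Over all protein-coding genes, 12.8% of 19970 had a gene-end region at either end, 10.3% of the 15811 of known strand at the start and 3.5% at the downstream end. Gene lists are set beside these shares, without a test. NRF2 target genes, the antioxidant and detoxification genes that A549 is known to express highly, had a region at 11 of 25 genes, and at the start of 6 of 17. Examples were ABCC3 (WT folds of 65.4 and 110) and ABCC2 (14.7 and 27.5), both drug exporters and both called in all 4 lists, and AKR1B10 (10.2 and 17.4), AKR1C3 (12.7 and 11.4), TALDO1 (10.1 and 18.2) and FTL (6.41 and 15.0), of which AKR1C3 alone was in 1 list and the others in none. Cell cycle genes had a region at 12 of 31, with the start of 9 of 25. MCM7 (18.7 and 75.9), CCNE1 (20.8 and 35.4), CDC25C (14.2 and 38.1), CCNE2 (13.4 and 35.3), MCM6 (15.5 and 16.4) and CDKN1B (12.7 and 11.7) led. Of the 14 regions of the cell cycle list, 0 were called in both uninduced lists, beside 8.78% of all gene-end regions. In any list were 2 of the 14, where 75.3% of all gene-end regions were in none. Whether so few regions depart from these shares was not tested. Of the 6 genes named, MCM7 alone was in any list. Histone genes had 10 of 23, but several share a region, such as H1-4 and H2BC5 (6.68 and 12.5), and their 8 regions had a median WT percentile of 50.0, below the 69.8 of all gene-end regions. H4C3 (13.9 and 34.9) and H3-3A (6.68 and 20.5) were the most enriched.

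Forkhead and foregut factors had 10 of 26, at the start in 4 of 17, with a median WT percentile of 90.2. FOXP1 (22.4 and 74.8 in WT) was called in all 4 lists (4.66 and 6.26 without, 8.15 and 7.72 with doxycycline). CEBPB (26.7 and 32.4) was in 1 list, and GATA6 (13.4 and 28.5) was in none. AP-1 family genes had 6 of 20, with JUNB (12.8 and 32.8) the highest. Of their 8 regions, 0 were in any FOXA1 list of the A-Fos line, where 75.3% of all gene-end regions were in none. These 8 had a median WT percentile of 59.6, below the 69.8 of all gene-end regions, and the departure from that share was not tested. AP-1-linked target genes had 9 of 31. CXCL8 (interleukin 8), with 66.2 and 131 in WT, had 22.8 and 38.3 without and 42.8 and 55.6 with doxycycline, and FOSL2 folds of 17.1 and 3.98. DUSP6 (36.0 and 72.3) was in all 4 lists without FOSL2, and DUSP1 (29.6 and 69.1) and MMP10 (17.1 and 21.0) in 3 and 2 lists. 

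Lung epithelial genes had 6 of 30, with ETV5 (33.1 and 52.7), TP63 (9.61 and 19.1) and MUC1 (6.68 and 12.1) besides KRT8, KRT18 and ELF3. Nuclear receptor and glucocorticoid response genes had 6 of 24, with KLF9 (33.9 and 70.2), NR1H3 (14.7 and 17.6) and NR2F2 (10.0 and 31.5) the highest. Lists of broadly expressed genes had shares from 16.7% to 21.4%, with 9 of 42 ribosomal protein genes, 6 of 31 proteasome subunits, 7 of 37 oxidative phosphorylation genes, 4 of 20 tRNA synthetases and 5 of 30 chromatin regulators. Among them RPS3 (26.7 and 65.3) and PSMD7 (21.4 and 94.8) were in all 4 lists, and COX4I1 (25.6 and 30.3) and KDM6A (10.1 and 25.3) in none. EPRS1 (16.2 and 19.6) was in 2. Zinc finger genes had 40 of 517 (7.74%), led by ZNF282 (33.6 and 73.1), and olfactory receptors 4 of 392 (1.02%), led by OR1F1 (5.88 and 7.29). Markers of other cell types had regions at 2 of 14 blood genes (CD14 and CD8A, 14.3% beside the 12.8% of all genes), 1 of 15 neuron and muscle genes (SNAP25), 1 of 13 keratin and skin genes (KRT10) and 0 of 14 fibroblast and endothelial genes.

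Of 2581 regions at gene ends, 121 were left out for a mark, 27 touching H3K9me3 and 98 touching H3K27me3, with 4 touching both. The most enriched with H3K9me3 were at PRRT1B (53.4 and 106), LOC124903090 (43.3 and 47.6), and the zinc finger genes ZNF585A (13.1 and 23.1) and ZNF233 (16.0 and 15.5). With H3K27me3, CHRNA2 and PTK2B (51.8 and 168) led, and the forkhead genes FOXB1 (23.8 and 40.6) and FOXP2 (18.0 and 41.5) were among the 4 highest.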

How the data were processed

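Of 17 samples, 14 had a peak list, 1 per library, and the 3 inputs were not analysed here. Each deposited list gives the peak's position and summit, the authors' fold enrichment (a linear ratio over background), and −log10 values for its p-value and for its q-value. No deposited −log10 q was below 1.30, which is a q-value of 0.05. Per the submitters' processing notes, MACS2, deepTools, SAMtools 1.8, BWA 2.2.1, fastp 0.23.2 and DRAGEN were among the tools, with build hg38. How they were set and combined is not given in the sources used here. As peak lists carry no read counts, the depth behind each peak is unknown, and deeper sequencing alone can lengthen a list.

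Groups came from the sample titles. Peaks were merged and called with a 1 bp overlap. Gene intervals came from a RefSeq GRCh38.p14 table of 19970 protein-coding genes, with strand and start sequence for 15811, matched by gene ID. The median TATAAA match lay 33 and 32 bases before the start on the plus and minus strand, a check of orientation. WT enrichment was the mean percentile of fold over both WT lists, cut into 10 equal classes over unmarked regions. Shares have exact (Clopper-Pearson) 95% intervals. Conditions were compared over libraries by exact two-sided permutation, with Benjamini-Hochberg adjustment. Overlap, reweighting and permutation steps were tested on simulated data. Python 3.11.15, pandas 2.3.3, numpy 2.4.6 and scipy 1.17.1 were used. The labels' replicate numbers name biological replicates with no shared batch stated. Replicate deviations in FOXA1 calls, rather than the calls themselves, correlated weakly between libraries with the same number (0.0409 over gene-end regions).

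The gene-end set, the 19 gene lists and the rules were chosen with earlier results of these data known. Named genes were the 10 highest regions at the start of 1 gene, the 8 highest at a downstream end, the 6 highest at several genes, the 6 highest in all 4 lists, the 6 lost and the 4 gained, the 6 highest by FOSL2 percentile, the 4 highest left out per mark, the 3 on each side of 1 kb, up to 6 per gene list, and FOXA1, FOXA2, FOSL2, FOS and JUN. Some genes that these rules chose are not reported here. The CCGGAAG motif, distances from motif to summit, the sign-flip tests, the windows holding a summit, the reweighting by enrichment, the split of printed sequences by calls in the A-Fos line and the AP-1 sequences were chosen after values were seen. Alternatives were other distances, upper parts of lists, 200 bp around summits, 50% coverage, each library left out, other uses of the marks, lists of equal length, a replicate block, and other motif settings.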

Additional observations from a re-analysis of the deposited data

How the results depend on the processing

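The direction of the FOSL2 difference and of both differences between gene-end and other regions was the same under every alternative run for them. For FOSL2, gene-end minus other shares averaged −12.1 points without doxycycline and −0.186 points with it. As FOSL2 calls were near 0 in both sets with doxycycline, the sign of that change only restates the uninduced gap. The FOXA1 difference between doxycycline and no doxycycline (0.0813 points) was −0.16 points with a distance of 2 kb and ranged from −4.47 to 4.63 points as single libraries were left out. The other 3 ranged from −19.3 to −6.2 points (FOSL2 share), 1.51 to 8.12 (FOXA1 minus others) and 7.94 to 15.9 (FOSL2 minus others). Lists of equal length lowered FOSL2 minus others from 11.9 to 2.58 points and FOSL2 itself to −0.73, and 50% coverage gave 7.02 and −6.68. The FOXA1 difference was 4.38 points with the upper parts of the lists, 2.25 with 50% coverage and 1.02 with equal lengths, and FOXA1 minus others was 3.14 with 50% coverage. With the replicate block, permuting within replicate number, the values were 0.0813, −12.7, 4.82 and 11.9 points and the smallest exact permutation p was 0.5, the lowest that 2 pairs allow, and no call changed.

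Leaving out single libraries gave 2400 to 7099 regions, 3.06% to 18.7% called in both uninduced lists, 19.2% to 35.0% of these lost, 3.82% to 19.3% with FOSL2, a median WT percentile of 46.3 to 69.8, a forkhead share of 15.7% to 34.3%, and a gap to the others of −16.3 to −5.08 points. The upper part of each list gave 1608 regions, 7.03% called, 14.2% lost, 4.73% with FOSL2, percentile 80.9, forkhead share 29.8% and a gap of −10.0 points. Using 200 bp around summits gave 7.39% called, 4.16% with FOSL2, forkhead share 35.2% and a gap of −10.1. Requiring 50% coverage gave 1131 regions, 3.89% called, 4.16% with FOSL2, forkhead share 34.2% and a gap of −5.32. Lists of equal length gave 7.48% called, 0.488% with FOSL2 and a gap of −7.57. TGTTTAC alone gave 13.6%, a window of 100 bp before the start 10.3% (2.84% of all such windows), and windows holding the summit 44.5% (library 1) and 43.6% (library 2). By decile of WT enrichment, weakest first, the gap was −0.185, 0.125, −0.403, −1.08, −1.94, −3.13, −7.46, −14.2, −35.7 and −27.8 points. Unless fewer libraries, peaks or bases by construction account for them, the cause of these shifts was not tested. Depth is unknown from peak lists, and 2 libraries a condition limit every p.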
